A study of Mus musculus with 2 samples.

Results

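The MHC class II genes of sciatic nerve macrophages were followed by name: *H2-Aa*, *H2-Ab1*, *H2-Eb1*, *Cd74*, *H2-DMa*, *H2-DMb1*, *H2-DMb2* and their transactivator *Ciita*, 8 of the 54838 genes in the deposited matrices. The cells were CD64+ CD45int cells sorted from the sciatic nerves of male Flt3-Cre LSL-YFP fl/fl mice aged 10 to 12 weeks, with nerves of 19 mice pooled and the sorted cells split by YFP into 1 single-cell library each. In these mice a cell carries YFP when it or a precursor expressed Cre driven by *Flt3* regulatory sequence, so the YFP+ library holds cells marked by passage through a *Flt3*-expressing progenitor stage. A YFP- cell is one that Cre did not mark, which by itself does not show its origin. Both libraries share the genotype, the sex, the age and the pool of nerves, and the comparison asks whether macrophages of unlike history in 1 nerve differ in class II transcripts.

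MHC class II molecules are pairs of an α and a β chain that carry peptides to the cell surface, where CD4+ T cells read them. The invariant chain encoded by *Cd74* guides the pairs from the endoplasmic reticulum to endosomes and fills their groove on the way, and the DM molecule there exchanges its last fragment for peptide. The genes are switched on together by CIITA, a coactivator that does not bind DNA itself but docks on factors at the X and Y boxes of class II promoters, and class II is carried by many tissue macrophages as well as by dendritic cells and B cells.

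Cells were barcodes with at least 500 unique molecular identifiers (UMIs, each standing for 1 captured RNA molecule) and 200 genes. The rule gave 1045 YFP- cells with 2418044 UMIs and 4053 YFP+ cells with 6747554 UMIs, with medians of 2233 and 1484 UMIs per cell, and 7 cell barcodes occurred in both libraries, against 5.74 if the barcodes were drawn independently. With 1 library per condition there are no replicates, so the libraries are compared without a p-value. Intervals are exact 95% intervals that cover counting error only. All 11 macrophage markers were detected, and *Cd79a* and *Ms4a1* of B cells and *Xcr1* and *Clec9a* of dendritic cells gave no or almost no UMIs, while the dendritic cell list summed to 148 UMIs per 1000000 (CPM) in YFP- cells and 140.1 CPM in YFP+ cells, and the B cell list, through *Ighm* and *Cd79b*, to 374 and 379.7 CPM. *Flt3* itself gave 18 and 72 UMIs.

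The promoters are shown for the letters that class II genes share. Whether these letters have a part in the levels seen in these cells was not tested. The set of RefSeq promoters used here (GRCm38.p6, 250 bases before to 50 bases after the start) covers 5 of the 8 members. *H2-Ab1*, *Cd74* and *Ciita* are not in this set. In the stretches below, read along the strand of the gene, the first run of capitals matches the X box letters CTNNNAAC and the second the Y box letters GATTGG.
H2-Aa, chr17:34287855-34287919, minus strand: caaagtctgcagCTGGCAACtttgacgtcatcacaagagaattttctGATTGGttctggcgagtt
H2-Eb1, chr17:34305761-34305824, plus strand: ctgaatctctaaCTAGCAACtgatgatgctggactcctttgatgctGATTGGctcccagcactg
H2-DMb1, chr17:34153082-34153146, plus strand: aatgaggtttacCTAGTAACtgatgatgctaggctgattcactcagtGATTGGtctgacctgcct
H2-DMb2, chr17:34145111-34145175, plus strand: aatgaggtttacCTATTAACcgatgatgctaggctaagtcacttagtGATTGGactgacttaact
The X box letters began 84 bases before the listed start in *H2-Aa*, 94 in *H2-Eb1*, 97 in *H2-DMb1* and 126 in *H2-DMb2*. These starts are RefSeq's. For *H2-Aa* and *H2-Eb1* they are the same as in the GENCODE M21 spans given further on. For *H2-DMb1* and *H2-DMb2* they differ from those spans. By those spans the stretches of *H2-DMb1* and *H2-DMb2* lie inside the genes, which start at chr17:34153072 and chr17:34143307. The stretches of *H2-Aa* and *H2-Eb1* lie before theirs. The gap between the boxes was 26 bases in *H2-Eb1* and 27 bases in the others. Neither of the 2 promoters listed for *H2-DMa* held X then Y on the gene's strand, 10 to 30 bases apart and before the start. Searched on both strands without these limits, the second of them held both sets of letters and the first held neither. Searched on both strands, the Y box letters alone occurred in 16.1% of all 32851 listed promoters and the X box letters alone in 41.1%. X then Y on the gene's own strand, 10 to 30 bases apart and before the start, occurred in 48 promoters (0.146%) of 46 of the 27025 genes. On either strand the pair occurred in 102 promoters (0.310%). The letters and the gap were set with the members' promoters in view, the boxes do not overlap each other, and a match describes the letters only.

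The class II transcripts were abundant in both libraries and higher in the YFP+ library. Summed over the 7 genes other than *Ciita*, class II took 4.18% of the UMIs of YFP- cells and 5.45% of those of YFP+ cells, which on the log2 scale puts the YFP+ library 0.38 (0.37 to 0.39) above the YFP- library. Ratios are of CPM with 1 CPM added to each side. Of the 8 members, 6 had a mean of at least 50 CPM, and all 6 lay above 0 on the log2 scale, with a median of 0.35, while 53.4% of the 2632 genes with that mean lay above 0, with a median of 0.02. None of the 6 differed 1.5-fold or more, and 6.88% of all genes did. The difference was thus small in size, the same in direction for each of the 6, and placed the class II sum above 96.1% of genes. Among the 20 genes with a mean of at least 5000 CPM, which include *H2-Aa*, *H2-Ab1*, *H2-Eb1* and *Cd74* themselves, the median was 0.07.

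The α and β chain genes lie side by side on chromosome 17 (GRCm38, GENCODE M21). *H2-Aa*, the α chain of the I-A molecule, lies at chr17:34282744-34287823 on the minus strand. It gave 6190.1 CPM in YFP- cells (14968 UMIs) and 7854 CPM in YFP+ cells (52994 UMIs), a log2 ratio of 0.34 (0.32 to 0.37). *H2-Ab1*, the I-A β chain at chr17:34257689-34269419, gave 6569 and 8588 CPM, a log2 ratio of 0.39 (0.36 to 0.41). *H2-Eb1*, the I-E β chain at chr17:34305867-34316674, gave 5821 and 7415 CPM, a log2 ratio of 0.35 (0.32 to 0.38). All 3 were higher in the YFP+ library by much the same step. The I-E molecule needs an α chain of its own. *H2-Ea-ps*, the locus for it, which its symbol marks as a pseudogene, gave 0 UMIs in both libraries, where 3 counts would be 1.24 and 0.445 CPM. No level of the I-E molecule is therefore read from *H2-Eb1*. The β chain gene *H2-Eb2* gave 0 and 1 UMIs.

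*Cd74*, the invariant chain at chr18:60803848-60812652, gave 22091 CPM in YFP- cells and 29333 CPM in YFP+ cells. Its log2 ratio of 0.41 (0.40 to 0.42) was above that of 96.8% of genes. With 53418 and 197923 UMIs it supplied more of the class II sum than the other members together, so the sum follows it closely.

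The DM genes were read from fewer UMIs and had the smaller ratios. *H2-DMa*, the DM α chain at chr17:34119541-34139101, gave 662 CPM in YFP- cells and 760.4 CPM in YFP+ cells, a log2 ratio of 0.20 (0.12 to 0.28), whose interval lies below those of *H2-Aa*, *H2-Ab1*, *H2-Eb1* and *Cd74*. *H2-DMb1*, a DM β chain at chr17:34153072-34160230, gave 453 and 559 CPM, a log2 ratio of 0.30 (0.21 to 0.40). *H2-DMb2*, the second β chain at chr17:34143307-34151555, rested on 14 and 43 UMIs (5.79 and 6.37 CPM), and its log2 ratio of 0.12 (-0.66 to 0.93) cannot be told from no difference at this depth. Of the windows of 50 bases in the longest *H2-DMb1* transcript, 27.2% also occur in *H2-DMb2*, so reads wholly within these cannot be placed between the copies. In the last 500 bases of that transcript the share was 20.4%. In the last 500 bases of the longest *H2-DMb2* transcript, 0% of the windows occur in *H2-DMb1*. *H2-Oa* and *H2-Ob*, the chains of the DO molecule that restrains DM, gave 8 and 20 UMIs in YFP- and 7 and 77 UMIs in YFP+ cells.

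*Ciita*, at chr16:10480059-10528418, was read from 77 UMIs in YFP- cells (31.8 CPM, 25.1 to 39.8) and 259 UMIs in YFP+ cells (38.4 CPM, 33.9 to 43.4). The log2 ratio of 0.26 (-0.10 to 0.64) lies on the side of the class II genes and spans 0, so a difference was not detectable at this depth. The factors that hold CIITA at the promoters were few in number of UMIs too. *Rfx5*, *Rfxank* and *Rfxap*, which bind the X box, had log2 ratios between -0.23 and 0.04, and *Nfya*, *Nfyb* and *Nfyc*, which bind the Y box, between 0.04 and 0.13, each with an interval across 0. *Spi1*, the myeloid factor PU.1, was level between the libraries at 340.4 and 353 CPM. Of the 15 factors and interferon signalling genes listed, 5 had a mean of at least 50 CPM, and none of the 5 differed 1.5-fold. Whether counting used the strand is not given in the sources used here. It is therefore not known here whether reads of *Ciita* and of *Dexi* on the opposite strand (30 and 65 UMIs) were kept apart where they overlap. The same holds for *H2-DMa* and *Brd2* (213 and 646 UMIs) and for *H2-Eb1* and the antisense gene *Gm20513* (5 and 17 UMIs).

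**Figure D1:**
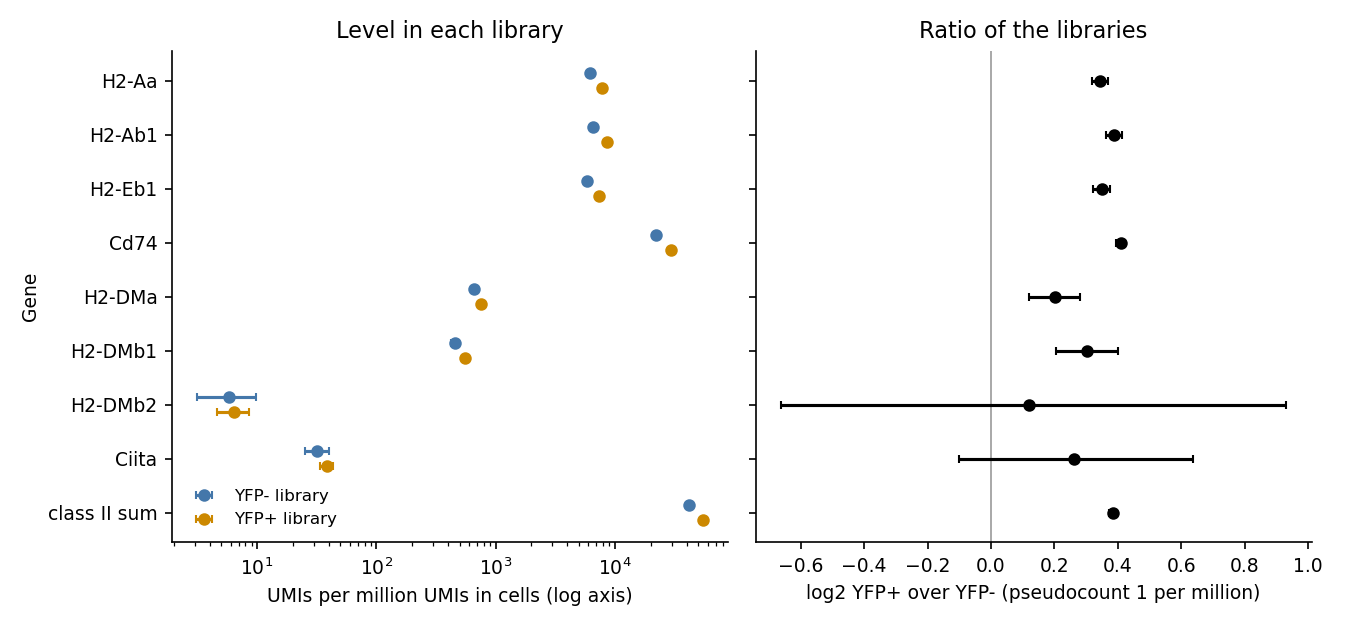
Left, the level of each member in the YFP- and YFP+ library in UMIs per 1000000 UMIs in cells (log axis), with exact Poisson intervals. Right, the log2 ratio of YFP+ over YFP- with its counting interval. *H2-Aa*, *H2-Ab1*, *H2-Eb1*, *Cd74* and the sum sit between 0.34 and 0.41, *H2-DMa* and *H2-DMb1* at 0.20 and 0.30, and the intervals of *H2-DMb2* and *Ciita* cross 0.

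Some of each level is RNA outside cells, measured in barcodes with 10 to 100 UMIs. These barcodes held 909646 UMIs in the YFP- and 2034293 in the YFP+ library, and class II took 3.89% and 4.53% of them, which is less than in the cells. The members differed in this. *Cd74* was higher in the cells than in the free RNA, by 0.45 in the YFP- and 0.68 in the YFP+ library on the log2 scale. *H2-Ab1* was lower in the cells, at -0.49 and -0.31. *H2-Eb1* was within 0.07 of the free RNA in both libraries. For each 100 *Cd74* UMIs there were 29.7 and 29.3 *H2-Ab1* UMIs in the cells and 57.2 and 58.4 in the free RNA, so the balance of these 2 transcripts was much alike in both libraries and different outside cells. For *H2-Aa* there were 28.0 (27.5 to 28.5) UMIs per 100 of *Cd74* in the YFP- and 26.8 (26.5 to 27.0) in the YFP+ cells, and for *H2-Eb1* 26.4 and 25.3, with counting intervals apart for both genes. When 10% of the UMIs of cells were removed in the proportions of the free RNA, the log2 ratio of the class II sum was 0.40.

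To compare single cells of unequal depth, each cell was thinned to 500 UMIs drawn at random, which kept all cells. The median cell then held 20 class II UMIs in the YFP- and 25 in the YFP+ library. The spread among cells was wide: the variance was 9.66 and 9.41 times the mean, where independent draws at 1 level would give a ratio near 1, and the highest cells held 100 and 121. *Cd74* was seen in 95.8% of YFP- cells and 97.6% of YFP+ cells. *H2-Aa* was seen in 84.8% (82.5 to 86.9) and 91.5% (90.6 to 92.3), *H2-Ab1* in 84.8% and 88.7%, and *H2-Eb1* in 83.3% and 88.2%. Before thinning, *H2-Aa* was seen in 95.2% and 96.2% of cells. *H2-DMa* was seen in 25.5% and 29.95% of thinned cells, *H2-DMb1* in 21.4% and 22.6%, and *Ciita* in 1.53% and 1.83%. Pure free RNA would give a *H2-DMa* UMI in 26.6% and 32.1% of such cells and a *Ciita* UMI in 1.15% and 1.37%, and it would give a *Cd74* UMI in over 99% of them, a *H2-Ab1* UMI in 99.0% and 99.5%, a *H2-Aa* UMI in 96.4% and 98.1% and a *H2-Eb1* UMI in 94.3% and 97.1%. These shares are above those seen in cells for all members but *Ciita* and *H2-DMb2*, which had few UMIs, so no share of expressing cells is read from any member. In cluster 9, described further on, where macrophage markers were lowest and the median total was 959 UMIs, *H2-Aa* was seen in 16.7% of 12 YFP- and 51.7% of 87 YFP+ thinned cells. Pure free RNA would also give 19.4 and 22.7 class II UMIs per cell, and the cells at the low end held fewer than that.

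Cells low in class II were defined as those with at most 6 class II UMIs of 500, which is 25% of the median of 24 over all cells. In the YFP- library 144 of 1045 cells (13.8%, 11.7 to 16.0) were low, and in the YFP+ library 331 of 4053 (8.17%, 7.34 to 9.05). These intervals are over the cells of 1 library each and do not measure a difference between the conditions. No class II UMI at all was drawn in 17 YFP- and 45 YFP+ cells. At the limit, 21 YFP- and 47 YFP+ cells held 6 UMIs, and 25 and 56 held 7. Low cells had median totals of 2091 and 1314 UMIs before thinning, against 2264 and 1498 for the others, so they were somewhat shallower in both libraries.

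**Figure D2:**
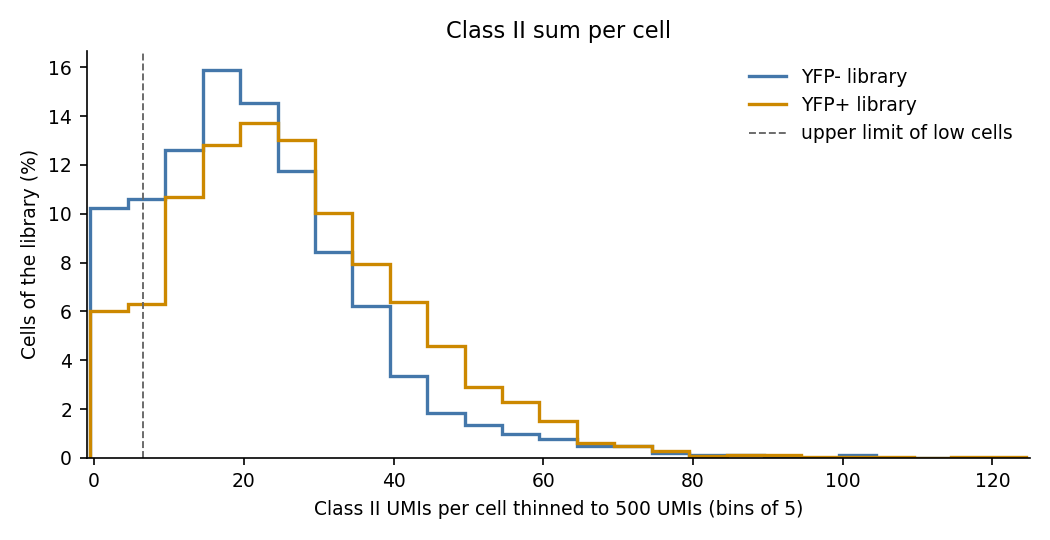
Share of the cells of each library (y axis, percent) by the number of class II UMIs per cell thinned to 500 UMIs (x axis, bins of 5). The dashed line marks the upper limit of low cells, and 13.8% of YFP- and 8.17% of YFP+ cells lie to its left. The YFP+ curve is shifted to the right, with a median of 25 against 20.

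The 4 abundant members rose and fell together from cell to cell. Across thinned cells (log counts), the 6 pairs of *H2-Aa*, *H2-Ab1*, *H2-Eb1* and *Cd74* had Pearson r from 0.52 to 0.67, with a median of 0.59 over the 1045 YFP- cells and of 0.59 over the 4053 YFP+ cells. *H2-Ab1* with *Cd74* was the highest pair at 0.67 in both. These cells share a library, a depth and, since the counts sum to a fixed total, a slight push against one another. The r of *H2-DMa* with the 4 lay between 0.13 and 0.18 and that of *H2-DMb1* between 0.16 and 0.24, in counts so sparse that the ceiling is low. *Ciita* reached at most 0.05 with any member.

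**Figure D3:**
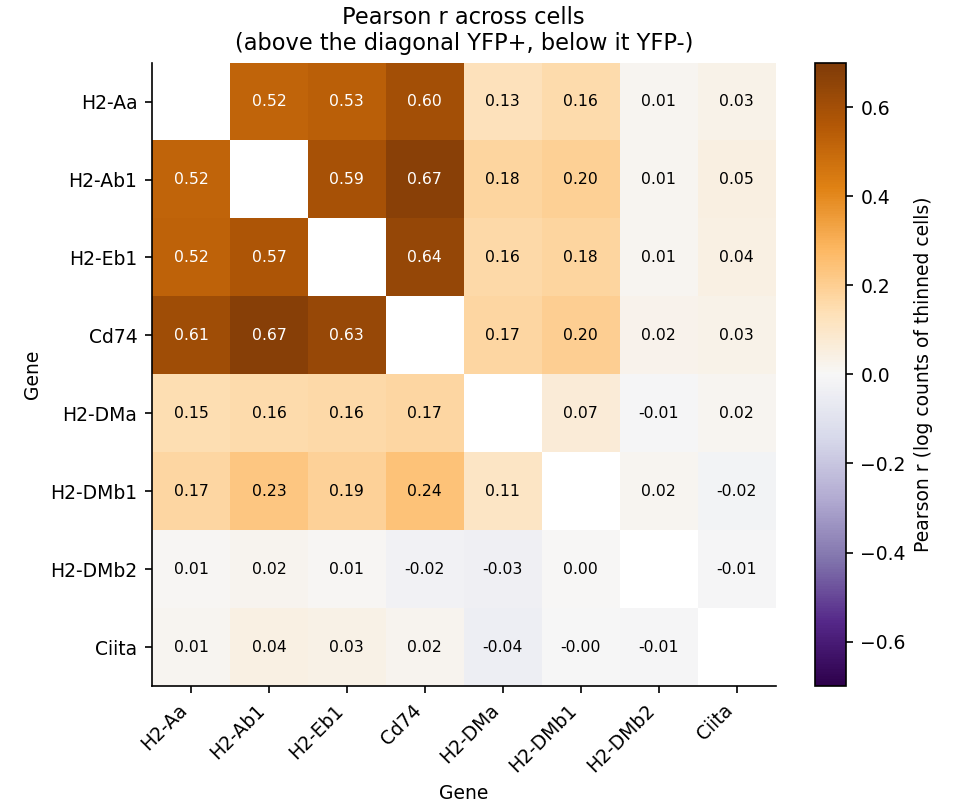
Pearson r between members across cells thinned to 500 UMIs (log counts), for the YFP+ library above and the YFP- library below the diagonal. The 4 abundant genes form a block of 0.52 to 0.67 on both sides of the diagonal, the DM genes lie at 0.07 to 0.24 with them and with each other, and *H2-DMb2* and *Ciita* are near 0.

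Each member was next read in quartile groups of the cells ranked by the other class II genes, so that no gene ranked its own cells. From the lowest to the highest quartile group, *H2-Ab1* went from 0.927 to 6.60 UMIs per cell in the YFP- library, a 7.12-fold rise (6.22 to 8.18), and from 1.43 to 7.67 in the YFP+ library, a 5.35-fold rise (5.06 to 5.66). *H2-Aa* went from 1.10 to 4.84 and from 1.84 to 5.76, rises of 4.42-fold (3.88 to 5.04) and 3.12-fold (2.97 to 3.29). The I-A β chain rose more steeply than its α chain in both libraries, with counting intervals apart. These intervals leave out the spread among cells, and the quartile groups of the 2 genes come from different rankings. *H2-Eb1* rose 5.49-fold and 4.35-fold, and *Cd74* 4.91-fold and 3.59-fold. *H2-DMb1* rose 4.61-fold (2.94 to 7.49) and 3.46-fold (2.83 to 4.24), close to *Cd74*, while *H2-DMa* rose 3.01-fold (2.10 to 4.40) and 2.27-fold (1.95 to 2.65). *Ciita* went from 8 to 26 UMIs in the YFP+ library, 3.25-fold (1.43 to 8.30), and from 1 to 4 UMIs in the YFP- library, 3.98-fold with an interval of 0.394 to 196. *H2-DMb2* had at most 5 UMIs in these quartile groups.

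**Figure D4:**
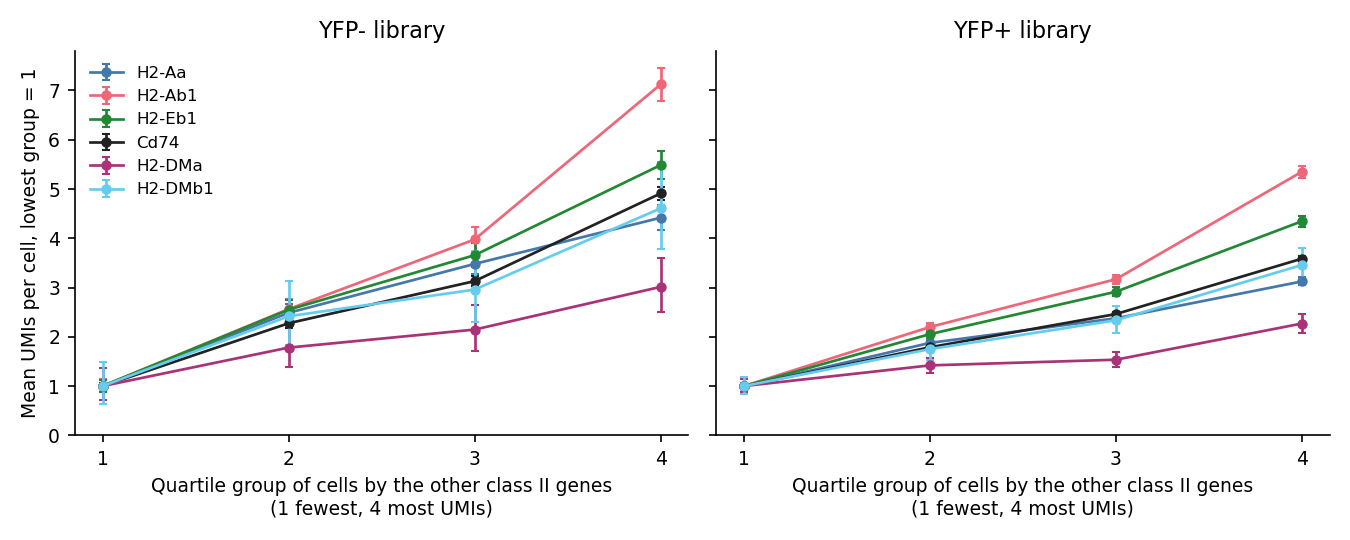
Mean UMIs per cell thinned to 500 UMIs (y axis, relative to the lowest quartile group of the same gene) in quartile groups of cells ranked by the other class II genes (x axis, 1 fewest to 4 most), for the YFP- and the YFP+ library. Bars are exact Poisson intervals of each mean, without the error of the lowest quartile group. Of the 6 members plotted, *H2-Ab1* ends highest, at 7.12 and 5.35, and *H2-DMa* lowest, at 3.01 and 2.27.

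Cells in which a *Ciita* UMI was drawn were compared with the other cells. In the YFP+ library, 74 such cells held 30.9 ± 16.7 class II UMIs (mean ± SD over cells) and the 3979 others 26.6 ± 15.8. In the YFP- library, 16 such cells held 21.7 ± 10.3 and the 1029 others 21.5 ± 14.5. The log2 ratio of the means was 0.22 (0.16 to 0.28) in the YFP+ library and 0.01 (-0.14 to 0.17) in the YFP- library, with intervals from UMI counts only. With *Ciita* read in all UMIs of a cell, which favours deep cells, 66 YFP- cells held 24.4 class II UMIs against 21.3 (0.20, 0.12 to 0.27), and 238 YFP+ cells held 31.6 against 26.4 (0.26, 0.23 to 0.30). A cell without a drawn *Ciita* UMI may still have expressed the gene. Over both libraries, with *Ciita* read in thinned cells, the log2 ratio of the means was 0.20.

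To place the members in groups of cells, cells of both libraries were clustered without the members and without *H2-Oa*, *H2-Ob*, *H2-Eb2* and *H2-Ea-ps*. The clusters are numbered by size and described by their leading genes. Since the libraries filled the clusters unequally, the levels were ordered within each library. In both, the class II sum was highest in cluster 6 (mitochondrial genes, *Mmp9*), at 52671 CPM for the YFP- library and 63479 CPM for the YFP+ library, and in cluster 3 (*Lgals3*, *S100a4*, *Ccr2*), at 52607 and 63176 CPM. Cluster 8 (the interferon-response genes *Irf7*, *Ifit3* and *Isg15*) followed at 49509 and 62036 CPM. Clusters 4 (*Cyr61*, *Gpx3*, *Vcam1*) and 2 (*Rnu12*, *Reps2*) stood at 42325 and 40873 CPM in YFP- and at 54579.7 and 54076 CPM in YFP+ cells. Cluster 5 (*Il1b*, *Cxcl2*, *Ccl4*) was near them in YFP- cells at 42238 CPM and above them in YFP+ cells at 59366 CPM. Cluster 1 (*Fhl3*, *Notch2*, *Actb*) held 36570.2 and 47874 CPM. The lowest levels were in clusters 7 (*Cd209f*, *Ccl8*, *Fcna*, *Retnla*; 24044 and 38869 CPM), 10 (the cell-cycle genes *Top2a*, *Birc5* and *Mki67*; 25776 and 27425 CPM) and 9 (*Myl9*, *Myh11*, *Tagln*; 4145 and 25791 CPM). In both libraries the counting intervals of the neighbours 6 and 3 overlapped. So did those of 4 and 5 and of 10 and 7 in YFP- cells, and those of 3 and 8, of 4 and 2 and of 10 and 9 in YFP+ cells, and the other neighbours in each order were apart. These intervals leave out the spread among cells, where the variance of the thinned class II sum was 9.66 and 9.41 times the mean. They therefore do not settle the order of clusters with close levels. With the libraries pooled, where cluster 3 is highest, the log2 ratio of cluster 3 over cluster 9 was 1.42 (1.37 to 1.47). It was 3.67 (3.34 to 4.02) within YFP- cells, where cluster 9 rests on 12 cells and 74 class II UMIs, and 1.29 (1.24 to 1.34) within YFP+ cells.

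Most members were lower in clusters 7, 9 and 10 than in the other cells of both libraries pooled. In cluster 7, 257 cells, 3 of the 6 members with at least 50 CPM were 1.5-fold or more lower than in the other cells (6.0% of genes were), *H2-Eb1* most at -0.74 on the log2 scale, while *H2-DMb1* stood at -0.29. *Ciita* in cluster 7 was at 34.3 CPM from 16 UMIs, a log2 ratio of -0.10 (-0.89 to 0.61) to the other cells. That interval holds 0 and also the -0.64 of the class II sum in this cluster. In cluster 10, 75 cells, all 6 were lower by that step (9.73% of genes were), from -0.89 for *H2-DMa* to -0.98 for *H2-Aa* and *H2-DMb1*. In cluster 9, 99 cells, all 6 were lower too, where 21.6% of genes were. Cluster 9 also held Schwann cell markers at 21439 CPM against 319 in the other cells and mural cell markers at 5105 against 7.54 CPM, with macrophage markers at 8431 against 20536 CPM, and the part of these cells or of doublets in its class II level was not tested. *Ciita* gave 1 UMI in cluster 9 and 2 UMIs in cluster 10. In the other 8 clusters it was at 29.6 to 55.6 CPM with the libraries pooled, from 13 to 67 UMIs each and with intervals that all overlap, so no order of these clusters is read from it.

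Within each cluster the class II sum was again higher in the YFP+ library. The log2 ratio lay above 0 in 10 of 10 clusters, with the counting interval above 0 in each. It was 0.39 in cluster 1, 0.40 in cluster 2, 0.26 in cluster 3, 0.37 in cluster 4, 0.49 in cluster 5, 0.27 in cluster 6, 0.69 in cluster 7, 0.33 in cluster 8 and 0.09 (0.01 to 0.17) in cluster 10. In cluster 9 it was 2.64, from only 12 YFP- cells, and cluster 10 held 14 YFP- cells. The counting intervals leave out the spread among cells. With clusters weighted alike in both libraries the ratio was 0.38, as with all cells. Of the single members, *Cd74*, *H2-Aa* and *H2-Ab1* lay above 0 in 10 of 10 clusters, *H2-Eb1* and *H2-DMa* in 9 and *H2-DMb1* in 8, with intervals above 0 in 10, 9, 9, 9, 5 and 5 clusters in that order. *Ciita* lay above 0 in 7 of 10 clusters, each with an interval across 0.

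Low cells were more frequent in the same clusters, although most low cells lay elsewhere. Clusters 7, 9 and 10 together held 58 of the 144 low YFP- cells (40.3%) and 114 of the 331 low YFP+ cells (34.4%), beside 10.2% and 7.99% of all cells. In cluster 7, 42 of 81 YFP- cells (51.9%, 40.5 to 63.1) and 45 of 176 YFP+ cells (25.6%, 19.3 to 32.7) were low. Of all low YFP- cells 29.2% were in cluster 7, and of all low YFP+ cells 13.6%, while the large cluster 1 held 80 low YFP+ cells (24.2%). In cluster 10, 5 of 14 and 23 of 61 cells were low, and in cluster 9, 11 of 12 and 46 of 87. In the other clusters 3.03% (cluster 8) to 15.9% (cluster 5) of YFP- cells and 2.11% (cluster 8) to 7.82% (cluster 1) of YFP+ cells were low. Without cluster 9 the shares were 12.9% of YFP- and 7.19% of YFP+ cells.

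**Figure D5:**
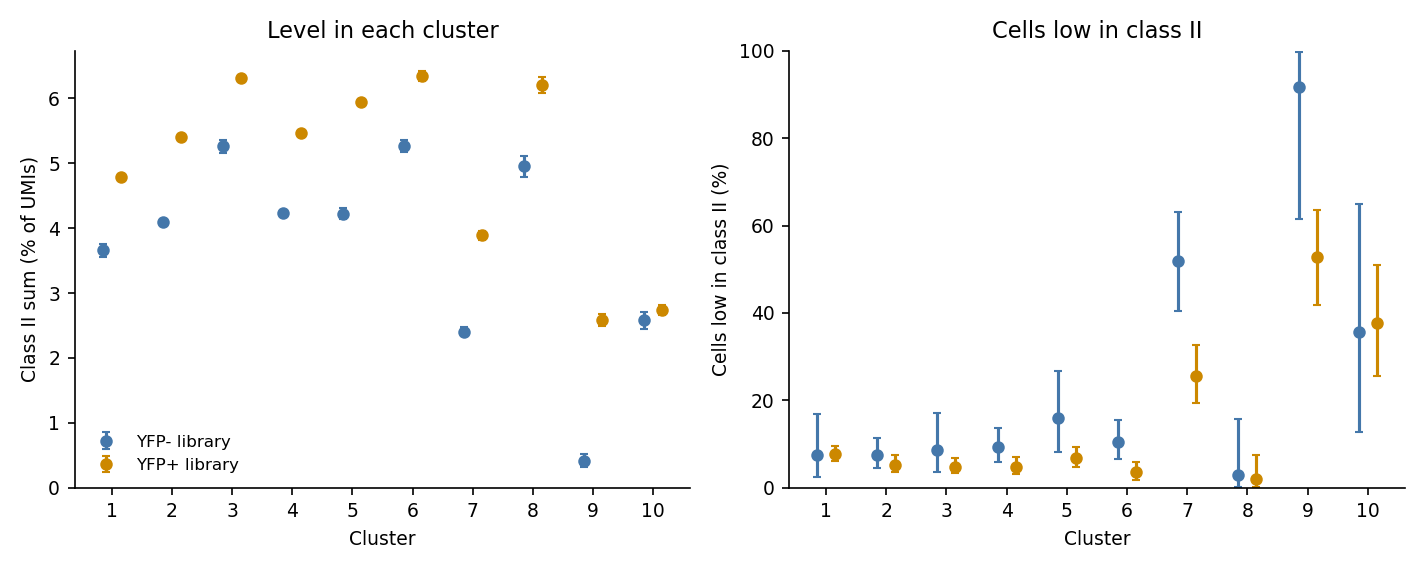
Left, the class II sum (percent of UMIs, exact Poisson intervals) and right, the share of cells low in class II (percent, exact binomial intervals), in clusters 1 to 10 of the YFP- and the YFP+ library. On the left the YFP+ point is above the YFP- point in each cluster, with the lowest values in clusters 7, 9 and 10. On the right the same clusters are highest, and cluster 9 has only 12 YFP- cells.

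The 566 other genes with at least 200 CPM in both libraries were ranked by r with class II from cell to cell. *Lyz2*, the lysozyme of macrophages, had the highest r, at 0.34 in each library. Its level, with class II UMIs taken out of the total, was 16415 CPM in the quartile group of YFP- cells with most class II against 9627 CPM in the quartile group with fewest, and 17162 against 9643 CPM in YFP+ cells. The next were *Cst3* (r 0.20 and 0.20), an inhibitor of cysteine proteases, *C1qa* (0.19 and 0.21) and *C1qb* (0.17 and 0.23) of complement, *Apoe* (0.28 and 0.15), *Tmem176a*, *Ctss*, *Mgl2*, *Tmem176b* and *Cd52*. *Tmem176a* had the largest step of these between quartile groups, a log2 ratio of 1.02 in YFP- and 1.19 in YFP+ cells. The step of *Lyz2* was smaller, at 0.77 and 0.83. In sparse counts the ceiling of r is low, so the ranking favours abundant genes and does not order genes by their step. The median r of the 566 genes was -0.01 in both libraries, and 90% of them lay between -0.10 and 0.08 in the YFP- and between -0.07 and 0.07 in the YFP+ library. These ranges include sparse genes, to which the same ceiling applies. The lowest in this ranking were *Actb* (-0.15 and -0.19), *Pmp22* (-0.21 and -0.15), *Mt1*, *Rps29*, *Uqcr11*, *mt-Nd1*, *Wfdc17*, *Ltc4s*, *Igfbp4* and *F13a1*. *Ltc4s*, the leukotriene C4 synthase, was lower in the quartile group with most class II by much the same step in each library, with log2 ratios of -0.96 and -0.98.

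The genes that process antigen went with class II in part. Of 6 listed genes, all with at least 50 CPM, none differed 1.5-fold between the libraries, and between the quartile groups 1 was higher and 1 lower in both libraries, where 1.14% of genes were higher and 2.17% lower. The higher one was *Ctss*, cathepsin S, the protease that trims the invariant chain, with log2 ratios of 0.63 in YFP- and 0.74 in YFP+ cells. The lower one was *Ctsd*, cathepsin D, at -1.61 and -0.76. *Ctsl*, *Ctsb*, *Lgmn* and *Ifi30* stayed within 0.45 on the log2 scale. Of the factors and interferon signalling genes, *Ifngr1*, a chain of the interferon-γ receptor, passed in both libraries, at 0.83 and 0.66, and 1 of 5 did so. Of the class I chains *H2-K1*, *H2-D1* and *B2m*, none passed in both, with *H2-D1* at 0.53 and 0.79. None of the 3 tested genes of class II turnover and costimulation passed in both (*March1*, *Cd83*, *Cd86*), with *Cd83* at 0.62 in YFP- and 0.38 in YFP+ cells. *Cd40*, a costimulator under 50 CPM, was lower in the YFP+ library, at 34.3 against 20.9 CPM (log2 ratio -0.69, -1.08 to -0.30). That is the opposite direction to the class II genes. *Cd80*, also under 50 CPM, stood at 20.3 against 13.3 CPM (-0.57, -1.06 to -0.07), short of 1.5-fold. The tested *March1*, *Cd83* and *Cd86* were level between the libraries, at 0.02, 0.02 and -0.10. No share of all genes was taken under 50 CPM.

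Of the lists of cells and states, *Ccr2*, the chemokine receptor of monocytes, was higher in the quartile group with most class II at 244 against 52.5 CPM in YFP- cells and 486 against 174 CPM in YFP+ cells, and it was also higher in the YFP+ library, at 292 against 124 CPM. *S100a4* and *S100a6* were higher in the YFP+ library as well, with log2 ratios of 1.43 and 1.24, and had no such step between the quartile groups (-0.81 and 0.17 for *S100a4*). The rest of the monocyte list was all but absent. *Ly6c2* gave 1 UMI in YFP- and 0 in YFP+ cells, and *Plac8* and *Chil3* gave 0 in both. *Hspa1a* and *Hspa1b*, heat-shock genes that rise on cell dissociation, were higher with class II, at 0.66 and 1.21 for *Hspa1a*. Only these 2 of the 8 genes of the immediate-early group were higher by 1.5-fold in both libraries, where 1.14% of all genes were. In the same group *Fos* stood at -0.02 and -0.002 and *Jun* at 0.21 and 0.02. *Hspa1b* and *Ccl4* were also higher in the YFP+ library, at 1.0 and 0.68. *Ednrb*, *Ccl24*, *Lyve1* and *Folr2* of the *Retnla* and *Clec10a* group were lower with class II in both libraries, from -0.64 for *Folr2* to -1.75 for *Ednrb* in YFP- cells, and *Clec10a*, *Ednrb* and *Ccl24* were lower in the YFP+ library, each at -0.68. *Retnla* went its own way. It was higher in the YFP+ library at 0.75, and between the quartile groups it stood at -1.0 in YFP- and 0.76 in YFP+ cells. *Mbp* and *Pmp22* of Schwann cells and *Stmn1* of cycling cells were lower with class II in both libraries, and the Schwann cell list summed to 1828 CPM in the lowest and 361 in the highest quartile group of YFP- cells and to 1568 and 423 CPM in YFP+ cells. The mural cell list summed to 27.9 CPM in the lowest and 3.78 CPM in the highest quartile group of YFP- cells and to 476 and 12.9 CPM in YFP+ cells, and the fibroblast list to 39.3 and 15.1 CPM and to 331 and 25.2 CPM. The part of RNA or doublets of these cell types in the class II ranking was not tested.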

How the data were processed

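Of the deposited files 2 matrices were used, 1 for each sorted population, with raw UMI counts per gene and barcode, not normalized and not filtered for cells. The submitters' processing notes name Cell Ranger 3.0.2, Seurat 2.2.0 and GRCm38, while the study's methods give another Cell Ranger version. The annotation release used for these libraries is not given in the sources used here. The gene and barcode files that the authors deposited beside the counts hold other values, the identifiers only. Python 3.11.15 with pandas 2.3.3, scipy 1.17.1 and numpy 2.4.6 was used for the counts. Cells needed 500 UMIs and 200 genes, a rule that keeps more cells than the study states it captured, no mitochondrial filter was applied, and doublets were kept. Levels are UMIs per 1000000 (CPM) summed over cells, since cells are not replicates. A level of 3 counts or fewer was treated as the floor. Log2 ratios add 1 CPM and carry the exact conditional binomial interval. Cells were thinned to 500 UMIs with seed 0 for the YFP- and seed 1 for the YFP+ library. Clusters used scanpy 1.11.5 and leidenalg 0.10.2 (2000 variable genes, 20 components, 20 neighbours, resolution 0.8). Named were all 8 members, the 10 genes most and the 10 least correlated with the class II sum among genes with at least 200 CPM, by the weaker of both libraries' r, and list genes that differed 1.5-fold between the libraries or between the highest and lowest quartile group. The steps were tested on simulated data. The members, lists and rules were chosen with earlier results of these data known. GENCODE M21 coordinates were matched by gene identifier, and promoters are RefSeq's. Bulk samples are not analysed here.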

Additional observations from a re-analysis of the deposited data

Results flagged for a closer look

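Barcodes with more than 100 and fewer than 500 UMIs, which lie between the free RNA and the cells and enter no comparison, also held class II transcripts. The 7 class II genes took 3.51% of UMIs (3.39 to 3.63) over 387 such barcodes of the YFP- library and 4.45% (4.39 to 4.51) over 1816 of the YFP+ library. They drew attention as signal outside the cells compared, and both values lie below those of the cells of the same library.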

How the results depend on the processing

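No paired analysis was possible because each condition is 1 library without replicates, and none could be left out. No alternative turned a direction, but shares of low cells and the highest over the lowest cluster cannot fall below 0 in any setting. The log2 ratio of the class II sum was 0.38, and it was 0.41 in cells with at least 1000 UMIs, 0.36 without cells carrying 2 UMIs of another cell type's markers, 0.31 with equal weight for each cell and 0.40 after removal of 10% free RNA. The filter on other cell types' markers removed 38.9% of YFP- and 27.1% of YFP+ cells. The *Ciita* ratio lay between 0.19 and 0.31 under 9 alternatives. With low set at 50% of the median, 28.3% of YFP- and 18.1% of YFP+ cells were low, at 10% of the median 6.22% and 4.17%, and with cells thinned to 1000 UMIs 11.4% and 6.69%. Without cluster 9, an alternative chosen after seeing the data, 7.19% of YFP+ cells were low. The median r of the 4 abundant members rose to 0.70 and 0.73 with 1000 UMIs. The highest over the lowest cluster was 1.47 at resolution 1.2, 1.53 with no gene left out, 0.68 in the YFP- and 1.28 in the YFP+ library clustered alone, and, chosen after seeing the data, 1.19 without cluster 9 and 3.67 within YFP- and 1.29 within YFP+ cells for the same clusters. In the YFP- library alone, cells with a *Ciita* UMI stood at 0.013 on the log2 scale to the others with thinned cells and at 0.20 with *Ciita* read in all UMIs. The causes were not tested. The 77 and 259 UMIs of *Ciita* and the 14 and 43 of *H2-DMb2* limit what can be said of both genes.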

Other observations

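The balance of the I-A chains varied between clusters with the libraries pooled. For each 100 *H2-Ab1* UMIs there were 82.6 *H2-Aa* UMIs in cluster 5 (*Il1b*, *Cxcl2*, *Ccl4*), 83.3 in cluster 6 and 87.3 in cluster 3, and 98.4 in cluster 2 and 103 in cluster 1 (*Fhl3*, *Notch2*, *Actb*). Over all cells there were 94.2 in the YFP- and 91.4 in the YFP+ library, and in the free RNA 71.8 and 74.5. UMIs are not scaled to transcript length, so these values serve to set groups of cells side by side and not to rank the 2 genes.

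Depth and class II were related in unlike ways in the libraries. From the quartile group of cells with the lowest UMI totals to that with the highest, the mean class II UMIs per thinned cell were 23.0, 20.5, 22.3 and 20.2 in YFP- cells and 24.0, 26.0, 29.1 and 27.6 in YFP+ cells.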
